A study of Mus musculus with 2 samples.

Results

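Nanog binding sites that lie close together in mouse embryonic stem cells (ESCs) are described here as chains, runs of neighbouring Nanog peaks. Distinct peak intervals on chromosomes 1 to 19 and X were chained where the gap to the next interval, edge to edge, was at most 12.5 kb, and every peak in a chain of 3 or more was taken. The members were thus chosen by the spacing of the peaks, which is itself part of the readout, so that spacing, span and number of peaks per chain are descriptions only. The rule took 503 of 8735 peaks (5.76%), which formed 155 chains. There were 125 chains of 3 peaks, 22 chains of 4 and 8 chains of 5, and none was longer. The other peaks were 6630 solitary peaks and 1602 peaks in 801 chains of 2.

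The peaks come from 1 chromatin immunoprecipitation (ChIP-seq) sample of the Bruce-4 line, taken with a rabbit monoclonal antibody against Nanog. Bruce-4 is a mouse ESC line, here cultured with serum and LIF, the cytokine that sustains self-renewal, and fixed with formaldehyde near confluence. The labels name no genetic modification and no treatment. The second sample is input chromatin of the same line and was not analysed here. Each arm is a single library of a single line, so no value below has a replicate error. The list holds positions only, so that the height of a peak and the read depth behind it are unknown. Expression was not measured in these samples, and the label of the cells could not be checked against marker genes.

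Nanog is a homeodomain transcription factor of the pluripotent state, which binds DNA beside Oct4, Sox2, Esrrb and Klf factors. In ESCs, regulatory elements bound by these factors often lie in groups, and dense groups with strong co-activator signal are called super-enhancers, for which the chaining distance used here is a common stitching distance. The chains described here rest on the positions of Nanog peaks alone, without any signal, and are not a super-enhancer call.

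Sequences of the chains near Sox2 and Nanog are shown first, because these genes encode core factors of the ESC state and their chains are among those with the most peaks. Each sequence is the window of 120 bases within the peak that held the most matches to the Oct4-Sox2 composite, Oct octamer, Sox, Nanog core, Nanog extended, Klf, Esrrb and Stat motifs, and lies on the mouse reference GRCm38 (the assembly that mm10 denotes, RefSeq), 5′ to 3′ on the plus strand. Capitals mark matches to these motifs on either strand.
Sox2 chain, peak 1 (chr3:34735004-34735123, plus strand): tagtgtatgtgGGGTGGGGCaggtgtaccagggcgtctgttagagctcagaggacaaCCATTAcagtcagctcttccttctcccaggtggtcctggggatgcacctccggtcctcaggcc
Sox2 chain, peak 2 (chr3:34745254-34745373, plus strand): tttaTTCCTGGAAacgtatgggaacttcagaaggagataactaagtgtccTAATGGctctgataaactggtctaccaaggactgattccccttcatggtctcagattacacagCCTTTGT
Sox2 chain, peak 3 (chr3:34756885-34757004, plus strand): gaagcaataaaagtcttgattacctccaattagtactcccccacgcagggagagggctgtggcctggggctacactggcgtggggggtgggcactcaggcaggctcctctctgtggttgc
Sox2 chain, peak 4 (chr3:34758038-34758157, plus strand): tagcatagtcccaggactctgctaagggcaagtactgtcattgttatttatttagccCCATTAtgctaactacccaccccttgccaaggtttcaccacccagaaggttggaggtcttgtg
Sox2 chain, peak 5 (chr3:34761476-34761595, plus strand): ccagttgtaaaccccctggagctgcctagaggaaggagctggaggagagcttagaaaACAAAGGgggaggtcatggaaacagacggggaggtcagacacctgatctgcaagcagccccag
Nanog chain, peak 1 (chr6:122762639-122762758, plus strand): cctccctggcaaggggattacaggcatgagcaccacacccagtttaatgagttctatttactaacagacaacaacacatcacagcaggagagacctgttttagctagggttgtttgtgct
Nanog chain, peak 2 (chr6:122765269-122765388, plus strand): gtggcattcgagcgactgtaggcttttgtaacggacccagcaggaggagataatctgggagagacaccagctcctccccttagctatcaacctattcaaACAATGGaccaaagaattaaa
Nanog chain, peak 3 (chr6:122766225-122766344, plus strand): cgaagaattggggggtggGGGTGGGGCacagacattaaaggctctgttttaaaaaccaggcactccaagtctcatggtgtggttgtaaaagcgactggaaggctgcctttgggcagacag
Nanog chain, peak 4 (chr6:122770496-122770615, plus strand): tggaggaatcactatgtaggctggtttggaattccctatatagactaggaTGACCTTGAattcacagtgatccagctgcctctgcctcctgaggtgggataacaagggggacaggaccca

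The windows of the Sox2 chain lie between genes. Nanog core matches (CCATTA) stood in the windows of peaks 1, 2 and 4, with a Klf match beside it in peak 1. A Stat match (TTCCNGGAA) stood with a Sox match in peak 2, and a Sox match alone in peak 5. The window of peak 3 held no match. The windows of the Nanog chain lie in introns of Slc2a3, the glucose transporter gene downstream of Nanog. They held a Sox match in peak 2, a Klf match in peak 3 and an Esrrb match in peak 4, and none in peak 1. No Nanog core match occurred in any of the 4 peaks of the chain near Nanog, over their whole length, which says only that these letters are not in these peaks.

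The Oct4-Sox2 composite is the joint site of both factors, and its matches are shown in motif orientation, with 20 bases on each side and the match in capitals. It occurred in 9 members, each in a different chain. All 9 matches differed from the consensus at 2 positions.
Composite, H2al2a chain of 3 (chr2:17989279-17989333, minus strand): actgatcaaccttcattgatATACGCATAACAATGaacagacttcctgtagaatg
Composite, Ifitm1 chain of 4 (chr7:140962999-140963053, plus strand): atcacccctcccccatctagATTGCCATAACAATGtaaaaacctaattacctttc
Composite, Pmfbp1 chain of 3 (chr8:108723115-108723169, minus strand): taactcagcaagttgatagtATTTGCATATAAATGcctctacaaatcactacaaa
Composite, Dppa5a chain of 4 (chr9:78359732-78359786, plus strand): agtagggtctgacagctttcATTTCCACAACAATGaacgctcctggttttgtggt
Composite, Cenpv chain of 5 (chr11:62511615-62511669, minus strand): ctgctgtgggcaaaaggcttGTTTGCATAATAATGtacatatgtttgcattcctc
Composite, Dct chain of 3 (chr14:117853015-117853069, minus strand): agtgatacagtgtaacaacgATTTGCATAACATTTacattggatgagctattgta
Composite, Clybl chain of 4 (chr14:122277396-122277450, minus strand): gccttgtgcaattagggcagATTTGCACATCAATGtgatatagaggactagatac
Composite, Gm5089 chain of 4 (chr14:122342241-122342295, plus strand): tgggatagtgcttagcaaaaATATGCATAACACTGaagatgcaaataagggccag
Composite, Jam2 chain of 4 (chr16:84779230-84779284, plus strand): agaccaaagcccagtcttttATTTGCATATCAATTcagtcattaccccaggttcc

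The chains of these matches were named by their nearest protein-coding gene. Pmfbp1 and Dct lay far from their chains, at 764 and 199 kb, and these chains lay in the bodies of Zfhx3 and Gpc6. The chain at Jam2 held that gene's transcription start site (TSS), as did the chains at Ifitm1 and Dppa5a. No member held a match with at most 1 mismatch. With 3 counts as the limit that a count of 0 allows, the share in 503 members is at most 0.596% (exact upper limit 0.731%), and 11 of 6630 solitary peaks (0.166%, exact interval 0.0829 to 0.297%) held one, so that no difference was detectable at this number.

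The Stat motif is the palindrome bound by STAT factors such as STAT3, which acts downstream of LIF. It is shown because its difference between members and solitary peaks had an interval that excluded 0. It occurred in 14 members in 14 chains, of which 13 are printed with 11 bases on each side.
Stat, Epha4 chain of 3 (chr1:77454070-77454100, plus strand): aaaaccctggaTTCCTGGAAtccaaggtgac
Stat, Sox2 chain of 5 (chr3:34745247-34745277, plus strand): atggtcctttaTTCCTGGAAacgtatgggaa
Stat, Bcas2 chain of 4 (chr3:103214827-103214857, plus strand): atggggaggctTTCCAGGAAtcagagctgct
Stat, AU018091 chain of 4 (chr7:3201465-3201495, plus strand): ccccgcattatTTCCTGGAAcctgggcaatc
Stat, Lcmt1 chain of 3 (chr7:123345301-123345331, plus strand): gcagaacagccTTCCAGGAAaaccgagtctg
Stat, Zmat4 chain of 3 (chr8:23567922-23567952, plus strand): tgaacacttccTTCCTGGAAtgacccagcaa
Stat, Gpt2 chain of 4 (chr8:85473425-85473455, plus strand): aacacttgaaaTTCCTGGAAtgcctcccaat
Stat, Gm33543 chain of 3 (chr10:95883953-95883983, plus strand): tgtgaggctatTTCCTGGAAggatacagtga
Stat, Ranbp17 chain of 3 (chr11:33537641-33537671, plus strand): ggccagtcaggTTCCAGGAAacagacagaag
Stat, Mtmr12 chain of 3 (chr15:12202711-12202741, plus strand): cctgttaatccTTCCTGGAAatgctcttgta
Stat, Tmprss12 chain of 3 (chr15:100248923-100248953, plus strand): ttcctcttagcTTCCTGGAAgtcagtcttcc
Stat, Xpnpep1 chain of 3 (chr19:53058730-53058760, plus strand): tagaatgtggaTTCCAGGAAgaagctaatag
Stat, Apln chain of 3 (chrX:48062985-48063015, plus strand): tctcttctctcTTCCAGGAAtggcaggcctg

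Members of a chain usually covered little of it. Chains spanned a median of 11.1 kb, with quartiles of 7.13 and 15.7 kb and a range from 1.40 to 28.9 kb, of which the peaks covered a median of 10.5%. The median span was 10.3 kb for 3 peaks, 17.0 kb for 4 and 18.4 kb for 5. The shortest chain, nearest to Tns3, packed 3 peaks into 1.40 kb. Its gaps were 0.138 and 0.250 kb, so that merging within 300 bp joins these peaks into a single interval. The longest spread 4 peaks over 28.9 kb. The rule's limit was approached from both sides. The widest gaps inside a chain were 12.394 kb in the chain at Rhpn2, 12.345 kb in the chain in Etl4 and 12.28 kb in the chain at Adrb3. Just outside stood pairs near Blm, Gpat4 and Grik3, whose next peak lay 12.556, 12.574 and 12.653 kb away. In all, 11 chains had a gap within 1 kb below the limit, and 22 pairs had a next peak within 1 kb beyond it.

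**Figure D1:**
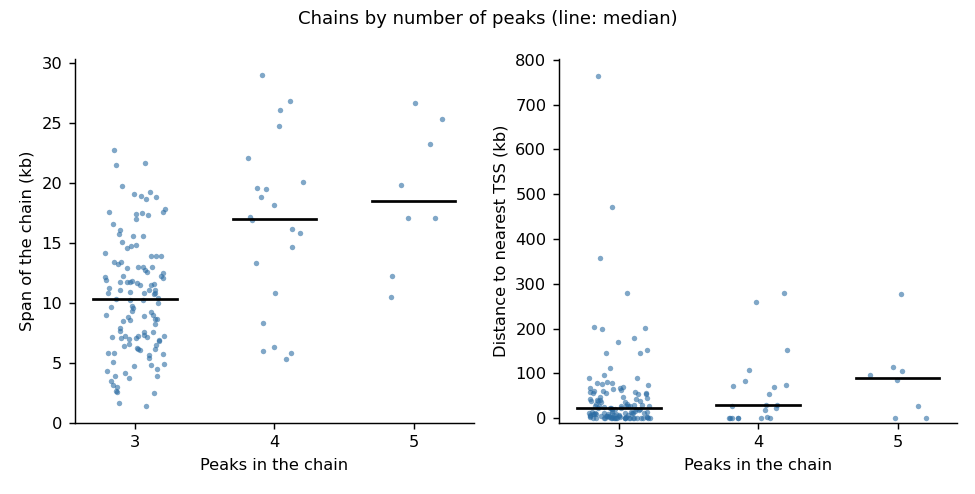
Span of each chain (left, kb) and distance from the chain's edge to the nearest protein-coding TSS (right, kb) against the number of peaks in the chain, with 1 point per chain and a line at the median. Median spans are 10.3, 17.0 and 18.4 kb for 3, 4 and 5 peaks, and the median distance of the 8 chains of 5 is 90.2 kb.

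Members were unevenly spread over the chromosomes. Chromosome 14 held 52 members (9.79% of its peaks) in 16 chains and chromosome 1 held 55 (8.80%) in 18 chains, whereas chromosome 17 held 6 (1.60%) and chromosome 12 held 6 (1.73%), each in 2 chains. Chromosome X, with 140 peaks, held 7 members in 2 chains. The peaks themselves were of ordinary width. The median was 326 bp for the members (quartiles 265.5 and 404.5 bp) and 318 bp for solitary peaks. It was 318 bp in chains of 3, 336.5 bp in chains of 4 and 373 bp in chains of 5. The smallest width in the list, 235 bp, was that of 39 members (7.75%) and of 594 solitary peaks (8.96%). These widths come from the same columns as the rule and were not tested. Repeated entries of the list touched the members little: 10 members (1.99%, exact interval 0.957 to 3.63%) were listed on more than 1 line, against 88 solitary peaks (1.33%).

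Copies of a sequence side by side could give neighbouring peaks, so the words of 16 bases that peaks of 1 chain share were counted. In 148 of 155 chains no such word was shared. One chain of 3 on chromosome 1, nearest to Sntg1, passed the limit of 20%, with 29.4% of words shared. Below it came a chain nearest to Mdfic with 18.3%, one nearest to Ngly1 with 13.0% and one nearest to Cemip with 10.2%.

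The chain of 5 at Sox2 (chr3:34734948-34761615) spanned 26.7 kb, the longest of the chains of 5. Sox2 (ENSMUSG00000074637.7) encodes the HMG-box partner of Oct4. The chain began 84.5 kb downstream of its TSS, and the centres of its last 3 peaks lay 107 to 111 kb away. Sox2 was the lone protein-coding gene with a TSS within 100 kb of it. Its peaks were 452, 559, 529, 389 and 457 bp wide, with gaps of 9.78, 10.9, 0.646 and 2.91 kb. All 5 were wider than the median solitary peak and all were intergenic. Between them they held Nanog core matches in 3 peaks, Sox in 2, AP-1 in 2, and Klf, Esrrb and Stat in 1 each.

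Sites in a gene body made up the chain of 5 in Etl4 (chr2:20668478-20691741). All 5 peaks were intronic and no protein-coding TSS lay within 100 kb. The nearest TSS was that of Arhgap21, a GTPase-activating protein, at 277 kb. The octamer occurred in its peak 1, Sox in peaks 2 and 4, the Nanog core in peak 3 and the Tcf/Lef motif in peaks 4 and 5.

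Another 3 chains of 5 had their nearest TSS at about 100 kb. The chain nearest to Med13l, a subunit of the Mediator kinase module, lay at chr5:118434802-118447040 in intergenic sequence, 114 kb from that TSS. It held the widest peak of these chains, 755 bp, and 3 peaks with a Nanog core match. A chain in the body of Ppp1r9a, the neurabin gene, lay at chr6:5008313-5033643, 105 kb from the gene's TSS. It was without Sox and Nanog core matches, whereas 4 of its 5 peaks held the Tead motif (GGAATG) and 2 of these the Esrrb motif (TCAAGGTCA). The chain at chr14:76652827-76663304 was the most compact, at 10.5 kb. It lay 95.9 kb upstream of Serp2, a protein of the endoplasmic reticulum stress response, and its 5 peaks were 247 to 360 bp wide.

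The remaining chains of 5 stood among several genes. The chain at Bcat1 (chr6:145061357-145078446) enclosed the TSS of that gene, which encodes the cytosolic branched-chain aminotransferase. Lrmp, a membrane protein of lymphoid cells, was the other gene within 100 kb, at 37.2 kb. The chain at Rhpn2 (chr7:35331763-35351537), enclosed its TSS too. Within 100 kb stood Gpatch1 at 13.3 kb, Faap24 of the Fanconi anaemia core complex at 45.3 kb, the centrosomal gene Cep89 at 45.5 kb and the amino acid transporter gene Slc7a9 at 97.3 kb. The chain in introns of Pigl (chr11:62494712-62511812), an enzyme of GPI anchor synthesis, had the centromere protein gene Cenpv as its nearest gene at 27.4 kb. The TSS of the co-repressor gene Ncor1 lay at 36.2 kb, that of Pigl itself at 36.3 kb, that of the ubiquitin gene Ubb at 39.4 kb and that of the cation channel gene Trpv2 at 62.7 kb. This was the one chain of 5 with a composite match.

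**Figure D2:**
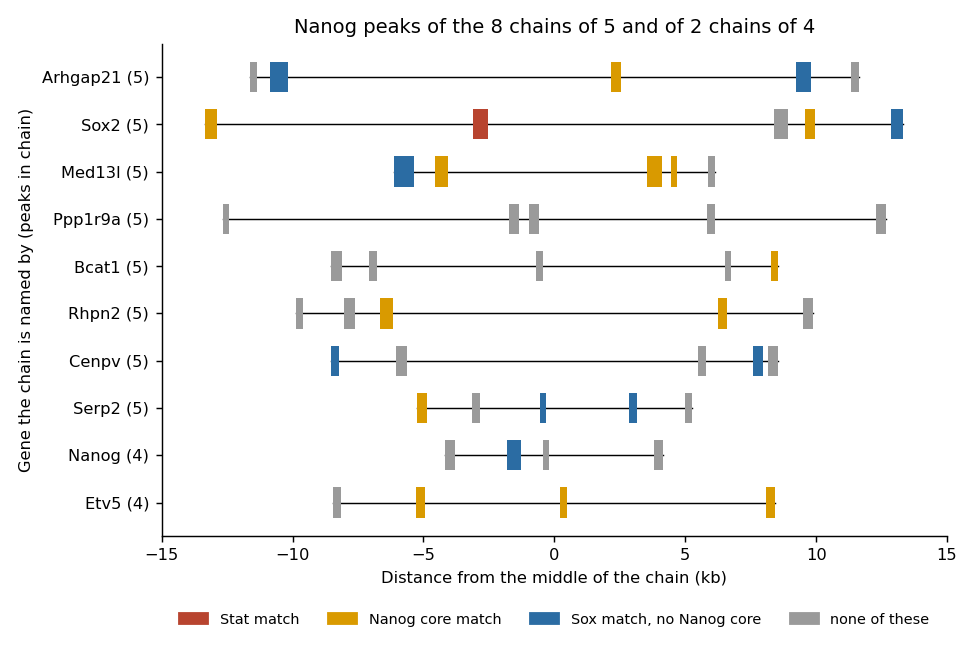
Positions of the peaks of the 8 chains of 5 and of the chains of 4 near Nanog and Etv5, to scale, against distance from the middle of the chain (kb). Each box is a peak, coloured by the first of Stat, Nanog core and Sox that it matches, and each chain is named by its nearest protein-coding gene or by the list gene within 100 kb. The Sox2 chain is the longest of the chains of 5 at 26.7 kb, and the chain in Ppp1r9a has no coloured peak.

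Among the 22 chains of 4, 7 held a protein-coding TSS. The genes with a TSS inside such a chain included Cldn4, a tight junction claudin, Ifitm1, an interferon-induced membrane protein, Adrb3, an adrenergic receptor, Gpt2, the mitochondrial alanine aminotransferase, Dppa5a, an RNA-binding protein of pluripotent cells, and Jam2, a junctional adhesion molecule. Keratin gene Krt42 lay 1.83 kb from its chain. Fryl lay at 18.2 kb, AU018091 at 23.9 kb, the ETS factor gene Etv5 at 27.7 kb, the spliceosome gene Bcas2 at 30.6 kb and Slc2a3 at 30.8 kb. Farther away were Crtc3, a co-activator of CREB, at 55.3 kb, Retreg1, a receptor for turnover of the endoplasmic reticulum, at 69.2 kb, Slc38a11 at 72.7 kb, Clybl at 73.8 kb and Smad7 at 82.2 kb. The chains nearest to Gm5089 (109 kb), Btbd11 (152 kb), Plekhb2 (259 kb) and the homeobox gene Dbx1 (279 kb) had no protein-coding TSS within 100 kb. The chains nearest to Fryl, Etv5, Slc2a3, Clybl and Btbd11 lay in those genes' bodies. Those nearest to Dbx1, Gm5089, Crtc3, Retreg1 and Smad7 lay in the bodies of Nav2, Clybl, Iqgap1, Myo10 and Ctif, in that order.

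The chain nearest to AU018091 stood beside a microRNA cluster, which the rule for genes, restricted to protein-coding genes, left out. The cluster of Mir290a to Mir295, whose microRNAs are abundant in ESCs, began 0.793 kb beyond the end of this chain, at chr7:3193114-3217833. The annotated 5′ ends of its 9 listed microRNA entries lay 0.793 to 2.94 kb from the chain, and Mir290b and Mir292b are entries on the minus strand. The 4 peaks were 341, 349, 373 and 324 bp wide and all intergenic. Matches of the Tead and Stat motifs occurred in its peak 2 and a Sox match in peak 3. This neighbourhood was singled out after its values were seen.

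Chains were also found near each other. There were 5 pairs of chains stood within 100 kb of each other: 14.6 kb apart near Sox13, 22.3 kb apart near Serp2, 46.6 kb apart in Clybl, 59.2 kb apart near Kank4 and 62.2 kb apart near Smad7. In Clybl, a gene of mitochondrial metabolism, both chains had 4 peaks and both held a composite match. The genes with a TSS within 100 kb of 2 chains were I0C0044D17Rik, Kank4, Serp2, Smad7 and Sox13. Smad7, the inhibitory Smad of TGF-β and Nodal signalling, had a chain of 3 beginning 8.10 kb downstream of its TSS. A chain of 4 lay at 82.2 kb, in the body of the gene Ctif. In all, 10 Nanog peaks lay within 100 kb of the Smad7 TSS.

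To ask which genes stood near chains, all protein-coding genes were counted whose TSS, the 5′ end of the gene in GENCODE vM21, lay within 100 kb of the edge of a chain. There were 455 such genes of 21755, or 2.09%, which is the background for the lists below. For comparison, 11937 genes (54.9%) had a TSS within 100 kb of any Nanog peak. A TSS stood inside a chain for 29 genes, in 24 chains. Among them were Tdh, the threonine dehydrogenase of mouse ESC metabolism, and Kat6b, a histone acetyltransferase, both chosen after their values were seen. The median chain had 2 genes within 100 kb. One chain of 3 had 15, at Hyal1 and its neighbours, and 20 chains had none, of which 13 had 3 peaks, 4 had 4 and 3 had 5.

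Factors of naive pluripotency were represented by 4 of 19 genes, Klf4, Nanog, Sox2 and Tfcp2l1, and 16 of the 19 had any Nanog peak within 100 kb. This count depended on the limits chosen, as did the background. At a gene distance of 50 kb it was 1 (5.26%, against 1.22% of all protein-coding genes). It was 2 with chaining at 5 kb (10.5% against 0.804%) and 10 with chaining at 25 kb (52.6% against 4.82%). Tfcp2l1, a grainyhead-family factor, had a chain of 3 within its own introns, from 14.3 kb downstream of its TSS. Its peaks were 312, 257 and 322 bp wide, and the Sox motif occurred in peaks 1 and 2. Klf4, a zinc finger factor and reprogramming factor, had a chain of 3 beginning 54.6 kb downstream, with peaks of 819, 442 and 495 bp, the widest of which held Sox and Nanog core matches. Nanog itself had a chain of 4 beginning 55.0 kb downstream of its TSS, with peaks of 374, 528, 255 and 343 bp separated by 1.98, 0.836 and 4.02 kb. In all, 8 Nanog peaks lay within 100 kb of the Nanog TSS. Of 17 pluripotency genes that the study named, 5 were near a chain, among them Etv5, Nanog, Sox2 and Tfcp2l1. This count was 3 at a gene distance of 50 kb, 2 with chaining at 5 kb and 6 with chaining at 25 kb, with the same backgrounds. The study picked these genes as examples that have binding sites of the reprogramming factors Oct4, Sox2, Klf4 and c-Myc and that are induced during reprogramming, so that the list is no complete set. Of the 9 regulators of the study's network, Nanog alone was near a chain.

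The chain of 4 in Etv5 began 27.7 kb downstream of the TSS within the gene. Nanog core matches occurred in its peaks 2, 3 and 4, numbered by genome position and not by distance from the TSS. Peak 4, centred on coding sequence, also held octamer, Sox and extended Nanog (GCCATTAA) matches.

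For the FGF and ERK pathway, 2 of 17 genes were near a chain, Etv5 and the receptor gene Fgfr1, whose chain of 3 lay 47.8 kb upstream. The Nodal and Activin pathway had Smad7 as 1 of 16, and the Wnt pathway had Gsk3b, the kinase that marks β-catenin for degradation, as 1 of 15, at 61.7 kb. No gene was near a chain among 8 of the LIF and STAT3 pathway and 13 of the BMP pathway with Id genes, although 6 and 10 of these had any Nanog peak within 100 kb.

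Polycomb components were represented by 2 of 16 genes. Jarid2, an accessory subunit of PRC2, had its TSS inside a chain of 3, with a peak centred 0.793 kb from the TSS, and Pcgf2, a subunit of PRC1, lay at 37.8 kb. Formative and primed factors were represented by 2 of 12 genes. Grhl2, a grainyhead factor of epithelia, had its TSS inside a chain of 3, and Otx2, a homeobox factor of primed cells, had a chain of 3 from 27.1 kb upstream. Otx2 was also the 1 of 9 neuroectoderm regulators. No gene was near a chain among 9 DNA methylation enzymes, 9 endoderm regulators, 8 primitive streak and mesoderm regulators, 8 trophectoderm regulators and 5 mesenchymal genes named by the study. Of 78 cytosolic ribosomal protein genes, 52 (66.7%) had any Nanog peak within 100 kb, against 54.9% of all protein-coding genes, and 0 had a chain. At the background of 2.09% few of 78 genes would be near a chain, so this 0 is no result about these genes. With chaining at 25 kb the count was 4 (5.13%, against 4.82% of all protein-coding genes). Leaving out the ribosomal genes, 13 of 170 list genes were near a chain, and 125 of 170 were near any peak. In lists of 5 to 19 genes, the background of 2.09% amounts to less than 1 gene, and no test was run on the lists.

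**Figure D3:**
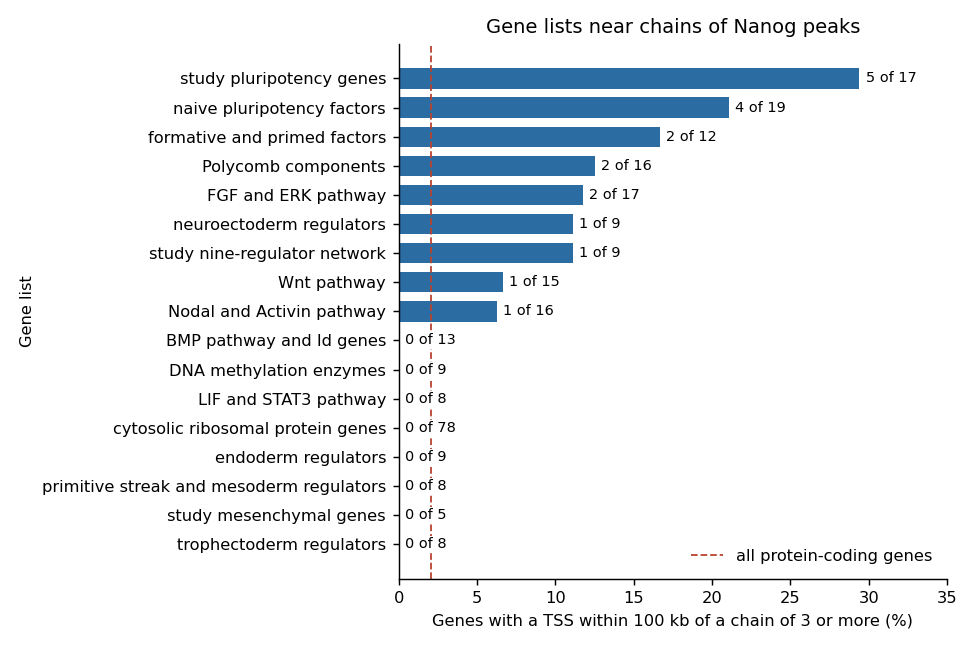
Percent of the genes of each list with a TSS within 100 kb of a chain of 3 or more, as bars with the count beside them, and the share of all protein-coding genes (2.09%) as a dashed line. Of the 17 lists, 9 stand above the line and 8 at 0, and the longest bars are the study's pluripotency genes (5 of 17) and the naive factors (4 of 19). In every list but the ribosomal one, 1 gene is enough to pass the line, and some lists share genes.

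The next comparison asked whether peaks in chains lie elsewhere in the genome than solitary peaks. Differences are the members' share minus that of the solitary peaks, with a 95% interval whose variance was summed over chains, so that peaks of 1 chain were not counted as independent. Intervals cover counting error only. Introns held 240 members (47.7%) and 47.1% of solitary peaks, a difference of 0.579 percentage points (-6.46 to 7.62). Intergenic sequence also held 240 members (47.7%), against 46.4% (difference 1.35, -5.98 to 8.68). Coding sequence held 3 members (0.596%) and 92 solitary peaks (1.39%), too few members for an interval. Whole chains were often of 1 kind: in 51 chains all peaks were intronic, in 59 all were intergenic, and 53 chains lay entirely within 1 gene.

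Members within 5 kb of a protein-coding TSS were 14.3%, against 14.7% of solitary peaks (difference -0.347, -4.62 to 3.93). Within 100 kb of a TSS the shares were 84.1% and 74.1%, a difference of 10.0 percentage points (4.02 to 15.999). The difference shrank to 2.63 (-3.48 to 8.74) when the solitary peaks were limited to those with another peak within 50 kb, was 5.76 (-0.789 to 12.3) against chains of 2 and 8.15 (-2.01 to 18.3) with chaining at 5 kb. For chains of 4 or more it was -2.99 (-19.02 to 13.03). Peaks without a TSS within 100 kb were 25.9% of solitary peaks, 21.7% in chains of 2, 11.5% in chains of 3, 18.2% in chains of 4 and 52.5% in chains of 5. The last share is of 40 peaks in only 8 chains, 3 of which had no TSS within 100 kb of their edge. Peaks of 1 chain share a neighbourhood, and these shares carry no interval. The mean number of TSSs within 100 kb was 2.80 for the members and 2.44 for solitary peaks (difference 0.361, -0.101 to 0.823).

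Repeats held fewer members. The middle base lay in a soft-masked repeat in 84 members (16.7%) and in 21.2% of solitary peaks (difference -4.51, -7.88 to -1.13). The interval reached 0 against chains of 2 (-1.34, -5.12 to 2.44), against solitary peaks with another within 50 kb (-3.21, -6.83 to 0.401) with chaining at 5 kb (-1.21, -7.84 to 5.42) and for chains of 4 or more (-3.24, -10.4 to 3.95). GC content was 48.9% in the members and 48.2% in solitary peaks (difference 0.732, 0.121 to 1.34). Their flanks, windows of equal width 1 kb beyond each edge, had 45.3% and 44.1%. The interval of the difference in GC content reached 0 against chains of 2 (0.232, -0.446 to 0.910), against solitary peaks with another within 50 kb (0.173, -0.470 to 0.816) and for chains of 4 or more (0.401, -0.653 to 1.46). The part of GC content in the other differences was not tested.

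**Figure D4:**
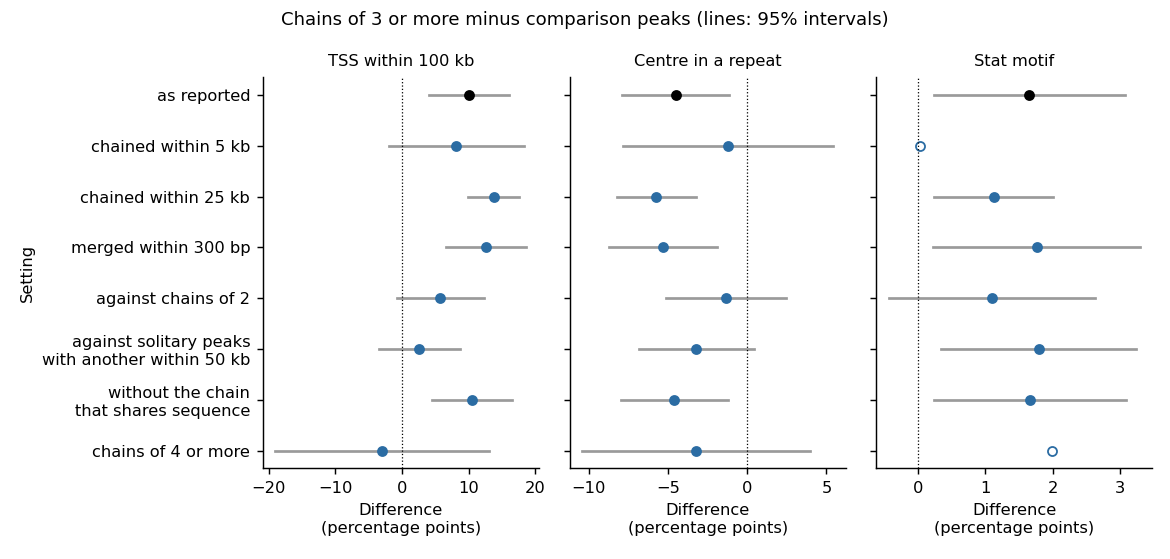
Difference between peaks in chains of 3 or more and comparison peaks (percentage points) for a TSS within 100 kb, a centre in a repeat and the Stat motif, under 8 settings. Points are differences, lines are 95% intervals, the open points have too few matches for an interval and the dotted line is 0. For a TSS within 100 kb the difference falls from 10.0 to 2.63 against solitary peaks with another within 50 kb and is -2.99 for chains of 4 or more.

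To ask whether the sequence of chained peaks differs, 15 motifs were searched on both strands of every peak and of the flanks. They were the Oct4-Sox2 composite with up to 2 mismatches and, without mismatch, the octamer (ATGCAAAT), Sox (CCATTGT or CCTTTGT), Nanog core (CCATTA), Nanog extended (GCCATTAA), Klf (GCCACACCC, GCCACGCCC, GCCCCACCC or GCCCCGCCC), Esrrb (TCAAGGTCA), Stat (TTCCNGGAA), Tead (GGAATG), AP-1 (TGACTCA or TGAGTCA), CTCF, the Myc E-box (CACGTG), Tcf/Lef (CTTTGAT), Prdm14 (GGTCTCTAA) and Otx2 (TAATCC). The extended Nanog motif contains the core, and the composite overlaps the octamer and Sox motifs. A Stat match followed by TG contains a Tead match, as in the printed sequences at Zmat4, Gpt2 and Apln. A match is a description of the sequence and not evidence of binding.

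Compared with their flanks, the members held 8 motifs more often, with an interval of the ratio above 1. The composite occurred in 1.79% of members and 0.212% of flanks (ratio 8.43, 1.85 to 38.4). That flank share rests on fewer than 5 matches in 942 flanks, so the size of this ratio is poorly determined. Esrrb occurred in 4.77% and 1.06% (ratio 4.49, 2.19 to 9.21). Klf occurred in 8.35% and 2.55% (ratio 3.28, 1.95 to 5.50), and the octamer in 5.57% and 1.91% (ratio 2.91, 1.65 to 5.14). Sox occurred in 25.2% of members and 11.4% of flanks (ratio 2.22, 1.74 to 2.84). Ratios were 1.73 for Tcf/Lef, 1.53 for Tead and 1.45 for the Nanog core (18.7% against 12.8%). Otx2 was less frequent in members (12.3%) than in flanks (20.0%, ratio 0.618, 0.472 to 0.808), and so it was in solitary peaks (11.6% against 14.0%, ratio 0.825, 0.762 to 0.893). Solitary peaks held the same 8 motifs above their own flanks and 3 others. Flanks were not matched to the peaks for repeats, and the part of repeats in these ratios was not tested.

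Between members and solitary peaks, the Stat motif was the one whose interval excluded 0, of 13 motifs with matches enough for an interval. It occurred in 14 members (2.78%) and 75 solitary peaks (1.13%), a difference of 1.65 percentage points (0.237 to 3.07). The share was 1.69% in chains of 2, 2.67% in chains of 3, 3.41% in chains of 4 and 2.50% in chains of 5, the last from 1 peak. Intervals were not adjusted for the number of motifs, and 1 of 13 may exclude 0 without any difference. Members did not exceed their flanks with an interval above 1 (1.49% of flanks, ratio 1.87, 0.871 to 4.03). The interval reached 0 against chains of 2 (1.10, -0.428 to 2.62) and in the central 200 bp (1.00, -0.0909 to 2.10). With chaining at 5 kb the difference was 0.0268, with too few matches for an interval. The peaks with the motif lay in chains near Sox2, the Mir290a to Mir295 cluster, Epha4, a receptor tyrosine kinase, and Apln, a peptide hormone gene, among others.

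The other motif differences had intervals that included 0. Sox was lower in members by point estimate (25.2% against 28.4%, difference -3.14, -7.12 to 0.849), and its interval excluded 0 in the central 200 bp (-5.54, -9.13 to -1.94). Esrrb was 4.77% against 3.30% (difference 1.47, -0.483 to 3.42), with an interval above 0 for chaining at 25 kb (2.09, 0.714 to 3.47). AP-1 was 6.16% against 8.10% (difference -1.94, -4.14 to 0.266). The Nanog core, at 18.7% against 17.8%, differed by 0.905 (-2.81 to 4.62), and the composite, at 1.79% against 1.49%, by 0.296 (-0.869 to 1.46). CTCF and Prdm14 each occurred in 1 member and were given no interval.

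**Figure D5:**
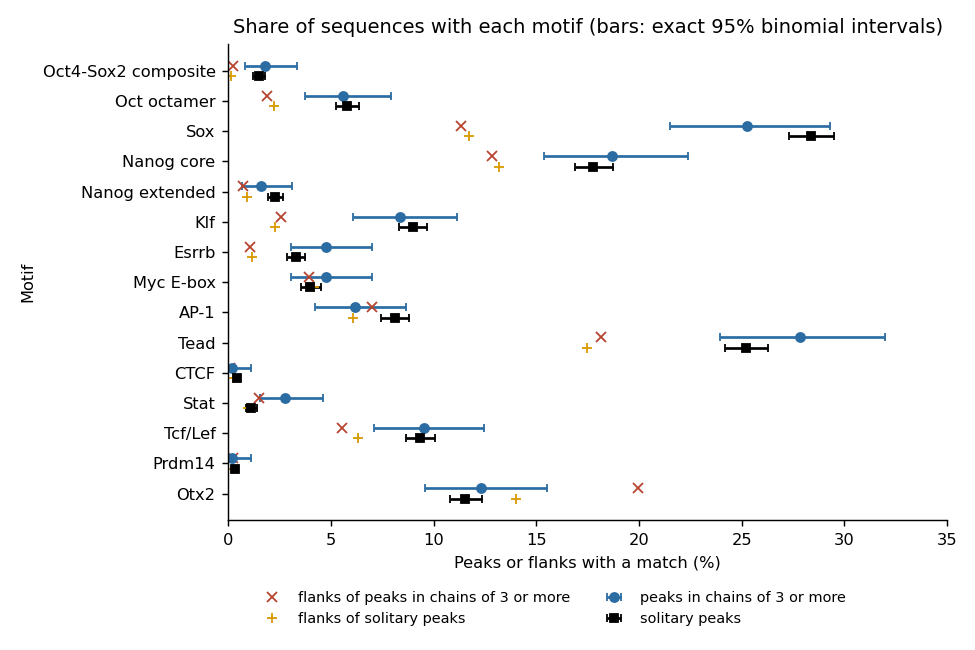
Percent of sequences with each of 15 motifs, in peaks of chains of 3 or more (circles) and solitary peaks (squares) with exact 95% binomial intervals, which treat peaks as independent, and in their flanks (crosses and plus signs). Tead and Sox are the most frequent in members at 27.8% and 25.2%, and Stat is at 2.78% in members and 1.13% in solitary peaks.

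Counts of motifs within chains are descriptions and were not set against counts expected from the shares of single peaks. At least 1 motif occurred in 388 of the 503 members, and 115 held none, and no chain was without a motif. The share of solitary peaks or flanks with any of the 15 motifs is not given here. Short motifs were common in the members' flanks too (Tead 18.2%, Nanog core 12.8% and Otx2 20.0%), so these counts are no trait of chains. The Sox motif occurred in 93 of 155 chains, in at least 2 peaks of 30 chains and in every peak of 3. Tead occurred in 98 chains, in at least 2 peaks of 36 and in every peak of 1. The Nanog core occurred in 72 chains, in at least 2 peaks of 17 and in every peak of none. Klf occurred in 37 chains, the octamer in 26, Esrrb in 22 and Stat in 14. The composite and Stat, rare at 1.79% and 2.78% of members, never occurred in more than 1 peak of a chain. The median chain held 3 of the 15 motifs, and the most was 7, in the chain of 4 at Adrb3 and in a chain of 3 nearest to Dct, a melanin synthesis gene. The latter chain lay in the body of Gpc6.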

How the data were processed

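Nanog was immunoprecipitated from 1 Bruce-4 sample, with 1 input sample. Per the study's methods, the authors aligned reads to mm10 with Bowtie2, removed low-quality, duplicate, mitochondrial and blacklisted reads with SAMtools and bedtools, and called peaks with MACS2. The threshold, and whether the input entered the peak call, are not given in the sources used here. The deposited values are the start and end of each peak in base pairs. They carry no score, count or signal, so weak sites under the threshold and depth cannot be assessed.

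The list had 8860 lines, of which 123 repeated an interval. The 8737 distinct intervals were counted once, and 2 on scaffolds were left out. Positions are 1-based. Distances to a TSS run from the middle base of a peak, or from the edge of a chain. Annotation was read at the middle base from GENCODE vM21. Computations used Python 3.11.15, numpy 2.4.6, pandas 2.3.3 and scipy 1.17.1. Intervals of differences need at least 5 matches in each class, and shares of single classes carry exact Clopper-Pearson intervals. Intervals of ratios to flanks were given without this minimum. The chaining, the motif search and the intervals of differences were tested on simulated data. The simulated shares were far above those of rare motifs such as Stat, and intervals of ratios were not simulated. No p-value was computed, since peaks of 1 library are not replicates.

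The members and gene lists were chosen with earlier results of these data known. Genes were named by rule: those within 100 kb of a chain of 5, the nearest gene of each chain of 4, list genes within 100 kb of any chain and genes near 2 chains. One gene that this rule names is not reported here. Alternatives were other chaining distances (5 and 25 kb), merging within 300 bp, other comparison peaks, search windows, mismatches, start sites and a gene distance of 50 kb. Chains of 4 or more, centres outside repeats and matches per kb were added after seeing the data.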

Additional observations from a re-analysis of the deposited data

How the results depend on the processing

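With 1 library and no strength or depth per peak, stability was assessed against processing alone, and the cause of each shift was not tested. No paired analysis was possible because peaks were listed for a single sample. Chaining at 5 kb gave 160 members in 51 chains, 175 genes within 100 kb and 4 lists above the background, and moved the GC difference to 1.34 percentage points. Chaining at 25 kb gave 1119 members in 325 chains, 1049 genes and 14 lists. In a list of 5 to 19 genes, 1 gene near a chain passes the background, so these counts show only which lists had any such gene. Merging peaks within 300 bp left 446 members in 137 chains, and counting every line gave 586 in 179 chains. A gene distance of 50 kb gave 266 genes. The number of motifs whose interval excluded 0 was 0 with chaining at 5 kb, 0 against chains of 2, 0 for chains of 4 or more, 3 with chaining at 25 kb (Sox, Esrrb and Stat), 2 against solitary peaks with another within 50 kb (AP-1 and Stat), and 2 for matches per kb (Sox and Stat). In the central 200 bp the number stayed at 1, but the motif was Sox. The share with a TSS within 100 kb differed by 2.63 against solitary peaks with another within 50 kb. For chains of 4 or more it turned to -2.99. The last 3 alternatives named in the methods were chosen after seeing the data. Of the differences whose interval excluded 0, the interval reached 0 under 4 of 8 alternatives for a TSS within 100 kb, 4 of 7 for repeats and 3 of 8 for GC content, as given in the report. For the Stat motif it reached 0 against chains of 2 and in the central 200 bp. With chaining at 5 kb and for chains of 4 or more, Stat matches were too few for an interval.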
